A study of Macaca fascicularis with 86 samples.

Results

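The amnion is the thin epithelium that closes over the embryonic disc and lines the fluid-filled cavity above it. In primates it forms from the epiblast, under BMP signalling, and its cells keep an epithelial programme with transcription factors that the trophoblast uses as well. The 10 genes described here, ISL1, TFAP2A, TFAP2C, GATA2, GATA3, GABRP, VTCN1, SPNS2, UPK2 and INSL4, are associated with that epithelium and were chosen by name from an earlier look at the same values. All 10 were found among the 17023 genes of the expression table. Their distribution over regions is therefore a description, and the tests across all genes are given as values for genes already known to vary.

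The samples were small regions cut by laser from cryosections of gastrulating crab-eating macaque (Macaca fascicularis) embryos and sequenced by Geo-seq, a low-input RNA-seq method for 5 to 50 cells per region. There were 3 embryos with no treatment and no named genetic change: E18 embryo 1 gave 15 regions in 4 sections, E18 embryo 2 gave 35 regions in 6 sections, and E20 embryo 1 gave 36 regions in 7 sections. E denotes the embryonic day of the label. A region is known by its section and its sector within the section. The labels do not say at which end of the embryo the numbering starts, where a sector lies, or which tissue a region holds. Each position was captured once, so regions of an embryo are not replicates of it, and the E20 stage rests on 1 embryo.

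Levels are in TPM, a relative abundance of transcripts that is scaled by transcript length so that genes can be set beside each other. Depth per region is unknown, because TPM keeps no read counts, and a value of 0 is written as listed at 0. Columns summed to between 495500 and 778000 TPM, and between 6194 and 13958 genes reached 1 TPM in a region. The 13 mitochondrially encoded genes took 8.91% to 48.8% of a column. The housekeeping genes ACTB and GAPDH had a value above 0 in each of the 86 regions, and no 2 regions correlated above a Spearman rho of 0.941. In regions of several cells, fewer cells of a type and less RNA per cell cannot be told apart.

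The amnion genes were high together in a small set of regions. Counting the members at 10 TPM or more in each region, 20 of 86 regions held 7 or more of the 10, and the other 66 held 5 or fewer. E18 embryo 1 gave 4 of its 15 regions to this set, E18 embryo 2 gave 12 of 35 and the E20 embryo gave 4 of 36. In E18 embryo 1 each of the 4 sections had 1 such region, which was sector 1 in sections 1 to 3 and sector 4 in section 4. In E18 embryo 2 each of the 6 sections had 2, which were sectors 4 and 5 in sections 1 to 5 and sectors 7 and 8 in section 6. In the E20 embryo they were sectors 3 and 4 of section 6 and sectors 2 and 4 of section 7, and sections 1 to 5 had 0. The region just inside the threshold was E18 embryo 1 section 4 sector 4, with 7 members, and the region just outside was E18 embryo 2 section 3 sector 1, with 5. Counted from 5 TPM the set was 22 regions, which included all 20, and from 20 TPM it was 13, all among the 20; these 2 levels were chosen after the data were seen.

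**Figure D1:**
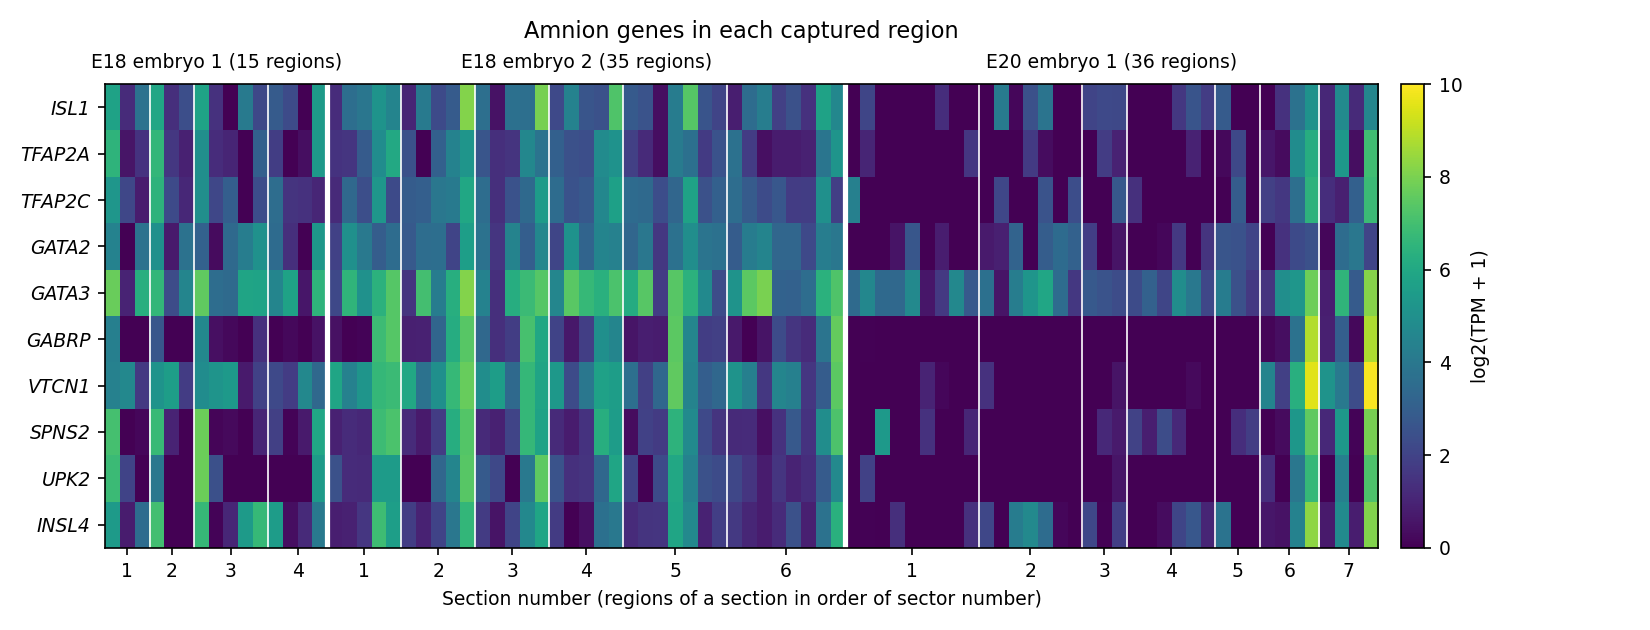
Level of each of the 10 amnion genes (vertical axis) in each of the 86 regions (horizontal axis, ordered by embryo, section and sector), as log2(TPM + 1) on the colour scale. Bright columns recur in each section of both E18 embryos, while in the E20 embryo they are in sections 6 and 7.

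**Figure D2:**
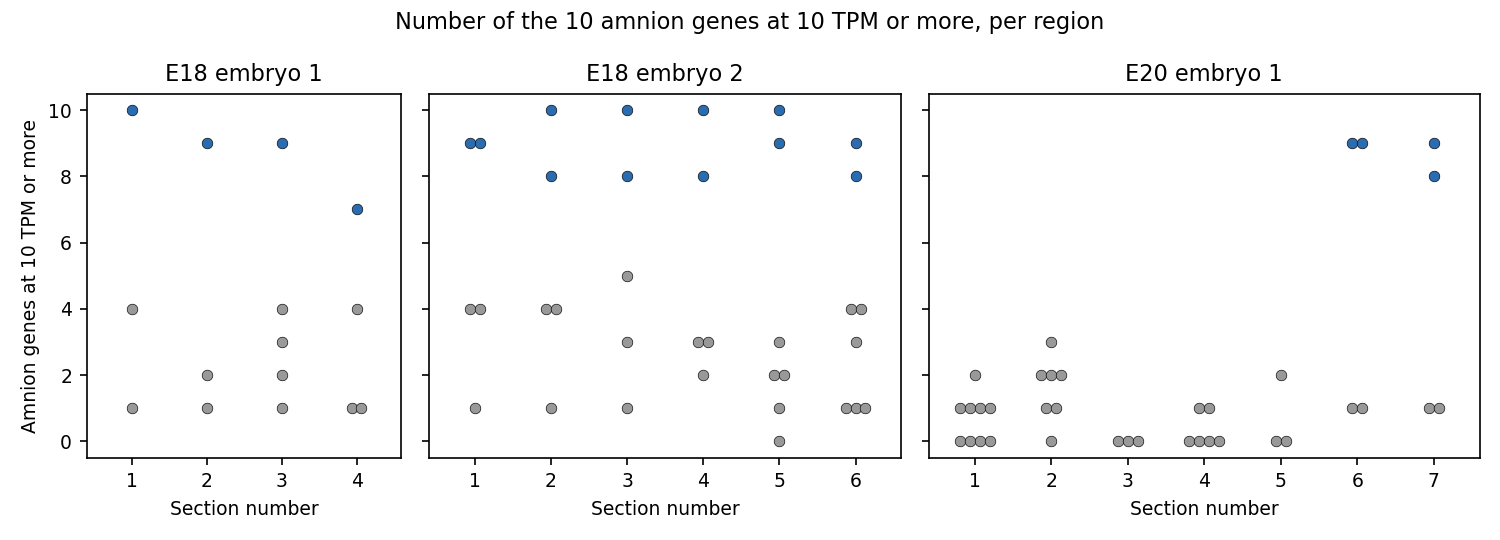
Number of the 10 amnion genes at 10 TPM or more (vertical axis) in each region, by section number (horizontal axis) and embryo. Each point is 1 region, and the 20 blue points, with 7 or more genes, stand above the 66 grey points, with 5 or fewer.

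The members differed in how closely they kept to those 20 regions. TFAP2A, SPNS2, INSL4 and GATA3 reached 10 TPM in 20 of the 20, ISL1, VTCN1 and UPK2 in 18, GABRP in 17, TFAP2C in 14 and GATA2 in 13. In the other 66 regions GABRP and UPK2 reached 10 TPM in 0, TFAP2A and SPNS2 in 1 each, TFAP2C in 7, INSL4 in 8, ISL1 in 12, GATA2 in 19, VTCN1 in 22 and GATA3 in 36. Since the set was defined by counting these same genes, their presence inside it and scarcity outside it are in large part fixed by that definition, and the counts serve as a description.

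Among the transcription factors, TFAP2A, an AP-2 factor of surface ectoderm and amnion, ran from 11.9 to 121 TPM in the 20 regions. Its highest value was in sector 4 of E20 section 7 and its lowest in sector 5 of section 5 in E18 embryo 2. Over whole embryos the median of TFAP2A was 1.78 TPM in E18 embryo 1 (0 to 98.0) and 4.76 TPM in E18 embryo 2 (0 to 64.6). At E20 its median was 0 (0 to 121). The ranges of the 3 embryos overlapped, as most regions of each embryo were low and a few were high.

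TFAP2C, the paralogue that also acts in trophoblast and germ cells, spanned 0.862 to 112 TPM in the 20 regions, a wider range than that of TFAP2A. For embryos 1 and 2 of E18 the medians of TFAP2C were 3.33 TPM (0 to 86.3) and 7.39 TPM (1.31 to 60.4), and for E20 the median was 0 (0 to 112). TFAP2C was at 1.10 TPM in E18 embryo 1 section 4 sector 4 and at 0.862 TPM in E20 section 7 sector 2, where TFAP2A stood at 41.9 and 38.9 TPM. High TFAP2A was therefore not always accompanied by high TFAP2C. Outside the set TFAP2C peaked at 19.4 TPM in E20 section 1 sector 1.

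ISL1, a LIM-homeodomain factor known for its role in amnion and in cardiac and motor neuron progenitors, was highest in E18 embryo 2. It reached 279 TPM in section 2 sector 5, and its median there was 10.4 TPM over 35 regions. In the 4 regions of E18 embryo 1 it stood at 53.6, 59.8, 54.5 and 43.0 TPM, and in the 4 E20 regions at 12.8, 32.8, 26.8 and 23.4 TPM. These 2 sets of 4 did not overlap, although each comes from 1 embryo. The 12 regions of E18 embryo 2 ran from 4.51 to 279 TPM and so spanned both sets. The share of all genes that separate the 2 sets was not counted. Among the 66 regions ISL1 peaked at 20.7 TPM.

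GATA2 and GATA3, zinc-finger factors shared by trophoblast, amnion and blood lineages, were the least restricted of the transcription factors. GATA3 was at or above 1 TPM in 81 of 86 regions, with medians of 53.4 TPM (0.537 to 209) and 79.8 TPM (1.55 to 280) for embryos 1 and 2 of E18, and of 9.503 TPM (0.493 to 288) for E20. GATA3 was at 252 TPM in E18 embryo 2 section 6 sector 3, a region outside the 20 in which SOX17, a factor of endoderm and germ cells, was at 85.3 TPM. Of the 36 regions outside the set with GATA3 at 10 TPM or more, 19 also had SOX17 at that level, beside 21 of all 66. GATA2 was below GATA3 in 76 of the 86 regions, the 20 included. It ran from 3.12 to 47.6 TPM in the 20 regions and up to 33.1 TPM outside them. In the 2 regions where GATA3 was 221 and 288 TPM, sector 4 of E20 sections 6 and 7, GATA2 was 4.66 and 3.13 TPM.

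Among the members that encode membrane or secreted proteins, VTCN1, GABRP and INSL4 reached higher single values than any of the transcription factors did, and SPNS2 and UPK2 did not. VTCN1, the B7-H4 immune checkpoint ligand, was at 965 and 758 TPM in sector 4 of E20 sections 7 and 6, above every other member there. GABRP, the pi subunit of the GABA-A receptor, was at 436 and 455 TPM in the same regions. SPNS2, which exports sphingosine 1-phosphate, was at 247 and 188 TPM, and UPK2, a uroplakin of urothelial plaques, at 147 and 103 TPM. INSL4, an insulin-like peptide known from the placenta, was at 274 and 317 TPM. The other 2 E20 regions of the set were lower for all 5: VTCN1 was at 78.5 and 15.5 TPM in section 6 sector 3 and section 7 sector 2, and GABRP at 12.6 and 6.89 TPM. These same 2 regions held SOX2, a pluripotency and neural factor, at 69.1 and 81.4 TPM, whereas the 2 sector 4 regions held it at 7.25 and 7.85 TPM.

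GABRP was lower in E18 embryo 1 than in E18 embryo 2. Its 4 regions of the set had 19.1, 5.47, 24.7 and 0.391 TPM, against 13.5 to 201 TPM in the 12 of E18 embryo 2. SPNS2 showed no such gap, with 132, 105, 214 and 59.0 TPM in E18 embryo 1 and 26.7 to 158 TPM in E18 embryo 2. UPK2 was highest in E18 embryo 1, at 212 TPM in section 3 sector 1, and ranged from 6.39 to 184 TPM in the 12 regions of E18 embryo 2. On the mean log2(TPM + 1) over all regions of an embryo, GABRP was 0.960 ± 1.61 (SD, n = 15 regions) in E18 embryo 1 and 2.93 ± 2.60 (SD, n = 35 regions) in E18 embryo 2. The difference of 1.97 was the widest among the members, and INSL4 was the only member lower in embryo 2, at -0.57. Of all genes tested 76.1% were higher in embryo 2, with a median of 0.41 for the same difference. No test was possible between single embryos.

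VTCN1 outside the 20 regions was found with SOX2. In all 22 such regions with VTCN1 at 10 TPM or more, SOX2 was between 41.0 and 256 TPM, while SOX2 reached 10 TPM in 35 of the 66. COL3A1, a collagen of mesenchyme, was at most 5.27 TPM in those 22 regions. Of the 22 regions 5 were from E18 embryo 1, 15 from E18 embryo 2 and 2 from the E20 embryo, and the highest value was 62.1 TPM in E18 embryo 2 section 2 sector 1.

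INSL4 outside the set was found with CGA, the alpha subunit of chorionic gonadotropin, and with markers of mesenchyme and yolk sac. The 8 regions with INSL4 at 10 TPM or more held CGA at 42.5 to 1683 TPM. Of these 8, 4 were from E18 embryo 1, 4 from E20 sections 2 and 5 and 0 from E18 embryo 2. Mean log2(TPM + 1) of CGA was 6.56 in E18 embryo 1 and 7.10 at E20, against 2.47 in E18 embryo 2. CGA reached 10 TPM in 44 of the 66 regions. Counts over the 66 were not split by embryo or section, so the pairing with INSL4 cannot be told apart from these. COL3A1 and TTR, a yolk sac gene, each reached 10 TPM in 7 of the 8, and in 32 and 36 of the 66. INSL4 was at 102 TPM in E18 embryo 1 section 3 sector 5, with CGA at 1683 TPM, the trophoblast factor GCM1 at 42.8 TPM and VGLL1, a TEAD cofactor, at 53.8 TPM. In E20 section 2, INSL4 was at 17.3, 24.95 and 10.53 TPM in sectors 3, 4 and 5, where CGA was at 961, 783 and 1658 TPM and GCM1 at 0, 5.94 and 0 TPM. SPNS2 had a single region outside the set, E20 section 1 sector 3, at 41.5 TPM, in which the yolk sac carrier gene TTR was at 1309 TPM.

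Markers of other cell types were measured in the 20 regions from lists fixed for this report. Of 23 measured genes in a list of other amnion and surface ectoderm genes, all 23 reached 10 TPM in at least 1 of the 20. In the 38 remaining regions of the E18 embryos and E20 sections 6 and 7, 18 did so. The share of all genes doing so was not counted in either set, so the 2 counts have no background. The mean log2(TPM + 1) of that list was 3.93 to 5.70 in the 20 regions and 1.501 to 3.48 in those 38. Some of its genes did not follow the members: CLDN10, a claudin, reached 10 TPM in 2 of the 20 and in 15 of the 66, and HPGD, which degrades prostaglandins, in 11 of the 20 and 31 of the 66. WNT6, a ligand of surface ectoderm, was at 10 TPM or more in 14 regions, all among the 20, and was at most 1.87 TPM in the 66. Mesenchyme genes were high in the 20 regions and in others: COL3A1 was between 40.0 and 3631 TPM in the 20 regions, and the 15-gene mesenchyme list averaged 3.75 to 8.46, against 0.795 to 4.82 in those 38 regions and 2.77 to 6.94 in the 28 regions of E20 sections 1 to 5. COL3A1 reached 10 TPM in 32 of the 66. The 12-gene blood and endothelium list averaged 1.4 to 4.21 (median 2.88) in the 20, 0.861 to 2.37 (median 1.41) in the 38 and 1.58 to 5.88 in the 28. The part of mesenchyme or blood and endothelial RNA in the values of the 20 regions was not tested.

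The trophoblast list, with 13 of 14 genes measured, had a mean log2(TPM + 1) of 0.994 to 3.39 in the 20 regions and 0.882 to 3.04 in the 38. Its genes were not alike. In the 20 regions CYP19A1, the aromatase of syncytiotrophoblast, was at most 4.05 TPM and ELF5 at most 3.26 TPM. ERVFRD-1, the syncytin-2 gene, was at most 6.66 TPM and listed at 0 in 12 of the 20. In the 66 the highest values of CYP19A1, ELF5 and ERVFRD-1 were 1.16, 4.70 and 5.79 TPM. GCM1 reached 10 TPM in 2 of the 20 and in 2 of the 66. TEAD4, a TEAD factor, reached 10 TPM in 15 of the 20, PGF, the placental growth factor, in 13, and SDC1, a syndecan, in 4, with highest values of 53.8, 122 and 52.9 TPM. TEAD4 and PGF also did so in 35 each of the 66, and SDC1 in 45. CGA reached 10 TPM in 13 of the 20, with 1745 and 4737 TPM in sector 1 of sections 1 and 2 of E18 embryo 1 and at most 249.5 TPM elsewhere in the set. The yolk sac endoderm list averaged 0.369 to 3.27 (median 1.23) in the 20 regions and 0.319 to 5.62 (median 1.39) in the 38. It averaged 2.26 to 10.6 in the 28 regions of E20 sections 1 to 5. The epiblast list ran from 2.62 to 5.91 in the 20 regions and from 4.78 to 6.58 in the 38. The summed TPM of the maternal decidua and immune list was 0.779 to 46.4 in the 20 regions.

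Levels of the members varied together across regions, but GATA2 stood apart. Pearson's r of log2(TPM + 1) was taken over the 86 regions after removing each embryo's mean. The regions come from only 3 embryos and their depth is unknown, so no p is given. The 45 pairs of members had r from 0.012 to 0.877, with a median of 0.607. GABRP, SPNS2, UPK2, TFAP2A and INSL4 formed the tightest group, picked after the values were seen, with 10 pairs between 0.714 and 0.877. The closest pair was GABRP with SPNS2, and the most distant was GATA2 with VTCN1. GATA2 had a median r of 0.312 with the other 9 members, and its closest partner was GATA3, at 0.564. VTCN1 differed between embryos: its r with ISL1 was -0.151 and 0.249 within embryos 1 and 2 of E18, and 0.552 within that of E20. Its r with GABRP was 0.325, 0.712 and 0.909 in the same order. Without E20 sections 1 to 5, where most members were at or near 0, VTCN1 with GATA2 was -0.170 and GABRP with SPNS2 was 0.902 (58 regions).

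**Figure D3:**
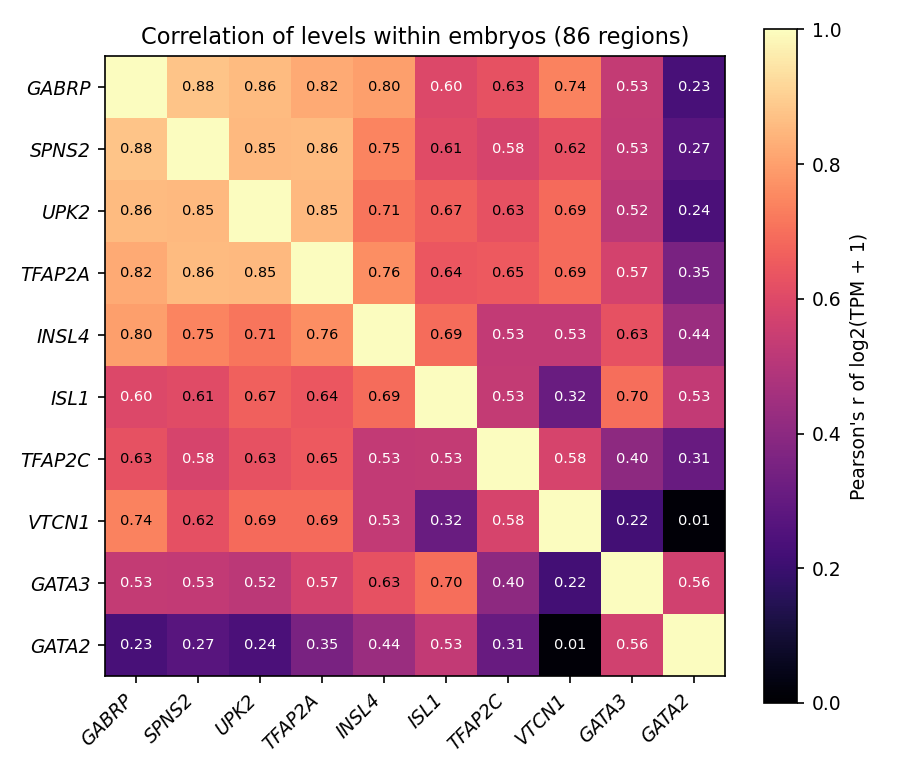
Pearson's r between each pair of the 10 amnion genes (both axes), over 86 regions with each embryo's mean removed, on log2(TPM + 1). The 5 genes at the upper left have r of 0.714 or more with one another, and GATA2, in the last position, has r of 0.564 or less with every other gene.

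Outside the 10 members, genes with a similar pattern were sought among 12369 genes. These were at 5 TPM or more in at least 5 regions and at 1 TPM or more in at least 10. Likeness was r within embryos to a score, the mean over the members of values standardised within each embryo. The 12 most like genes were WNT6 (0.865), TFAP2B (0.843), IGFBP5 (0.835), ADRA1D (0.834), COL6A3 (0.830), VGLL1 (0.817), DLX5 (0.815), GRHL1 (0.806), TBX2 (0.806), COL6A2 (0.805), FLNC (0.802) and CST6 (0.798). Within single embryos r to the score was between 0.574 and 0.937 for these 12 genes. WNT6, TFAP2B, DLX5 and GRHL1 belong to the list of other amnion and surface ectoderm genes. COL6A2 and COL6A3, which encode chains of collagen VI, belong to the mesenchyme list. TFAP2B, a further AP-2 factor, was at most 26.8 TPM and at most 2.07 TPM in the 66 regions.

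The gene most like a member differed between members. GABRP was closest to TFAP2B (r = 0.920) and to SLCO2A1, a prostaglandin transporter (0.908). SPNS2, TFAP2A and UPK2 were each closest to WNT6, at 0.910, 0.858 and 0.870. VTCN1 was closest to GRHL2, a grainyhead factor of epithelia, at 0.897, and GRHL2 was at 10 TPM or more in 17 of the 20 regions and in 15 of the 66. INSL4 was closest to VGLL1 (0.795), TFAP2C to FREM2 (0.667), GATA3 to AMOTL2 (0.729), ISL1 to IGDCC3 (0.783) and GATA2 to ANP32B (0.630). The next most like genes were ATP12A for TFAP2A (0.854), ADRA1D for UPK2 (0.862), TFAP2B for SPNS2 (0.828), CST6 for VTCN1 (0.787) and IGFBP5 for INSL4 (0.770). They were COL6A2 for ISL1 (0.756), TBX2 for GATA3 (0.727), SOX15 for TFAP2C (0.655) and PRTG for GATA2 (0.603). GATA2 and TFAP2C had the weakest best matches.

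The 2 regions of the set in each section of E18 embryo 2 differed from each other in a repeated way. In each of the 6 sections 1 of the 2 had a mitochondrial share of 14.1% to 29.4% and the other of 41.0% to 48.8%; this ordering was chosen after the data were seen. ISL1 in sections 1 to 6 was at 33.9, 279, 247, 152, 162 and 53.8 TPM in the regions of lower share, and at 21.7, 6.41, 11.7, 4.51, 17.2 and 23.8 TPM in the regions of higher share. The 2 sets of ISL1 values did not overlap on this scale, and the share of all genes without overlap was not counted. The median log2 difference for ISL1 was 3.72 (0.62 to 5.24 over 6 sections). With the mitochondrially encoded genes removed and columns rescaled, the smallest ISL1 difference was -0.19, so the 2 sets then overlapped.

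TFAP2C followed the same order. It was at 37.0, 60.4, 44.0, 50.5, 52.7 and 31.9 TPM in the regions of lower share. In those of higher share it was at 3.75, 15.8, 9.55, 23.9, 8.84 and 2.61 TPM, again without overlap on this scale. Its median log2 difference was 2.27 (1.05 to 3.19). Of all 15216 genes, 22.9% were higher in the region of lower share in 6 of 6 sections, so ISL1 and TFAP2C shared this direction with 3483 genes, and the median difference of all genes was 0.452. Of the 19 tested genes of the BMP pathway list 10 were higher in 6 of 6 sections and 0 were lower in 6, and of the 23 other amnion and surface ectoderm genes 7 and 0. The BMP targets ID1, ID2 and BAMBI were among the 10, with median log2 differences of 1.94, 2.11 and 2.80, and the ligand BMP4 was higher in 5 of 6, with 2.10. Of the 15 mesenchyme genes 8 were higher in 6 of 6 sections.

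VTCN1 and GABRP went the other way in 5 of 6 sections. VTCN1 was at 101, 202, 56.1, 45.9, 21.5 and 6.61 TPM in the regions of lower share and at 111, 102, 99.4, 52.3, 186 and 179 TPM in those of higher share. VTCN1, GABRP and SPNS2 were each lower in the region of lower share in 5 of 6 sections, with median log2 differences of -0.50, -0.81 and -0.83. In each case section 2 was the exception. SOX2 was lower in 5 of 6 sections as well, with a median of -3.09. Of all genes 3.22% were lower in 6 of 6 sections, and the shares lower or higher in 5 of 6 were not counted. After the mitochondrially encoded genes were removed and columns rescaled, TFAP2C remained higher in 6 of 6 sections and ISL1 in 5 of 6, with medians of 1.57 and 3.00. On that scale 4.58% of genes were higher in all 6 and the median gene stood at -0.13. TFAP2A was then lower in 6 of 6 sections, with a median of -1.37, as were 8.95% of all genes. ID1, ID2 and BAMBI remained higher in 6 of 6 sections after rescaling. Of the other amnion and surface ectoderm genes, CDX2 remained so in 6, HAND1 in 5 and IGFBP3 in 4. KRT19 went from higher in 4 sections before rescaling to higher in 0, with a median of -0.63. The list counts above were taken before rescaling only. The part of RNA quality in these pairs was not tested.

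**Figure D4:**
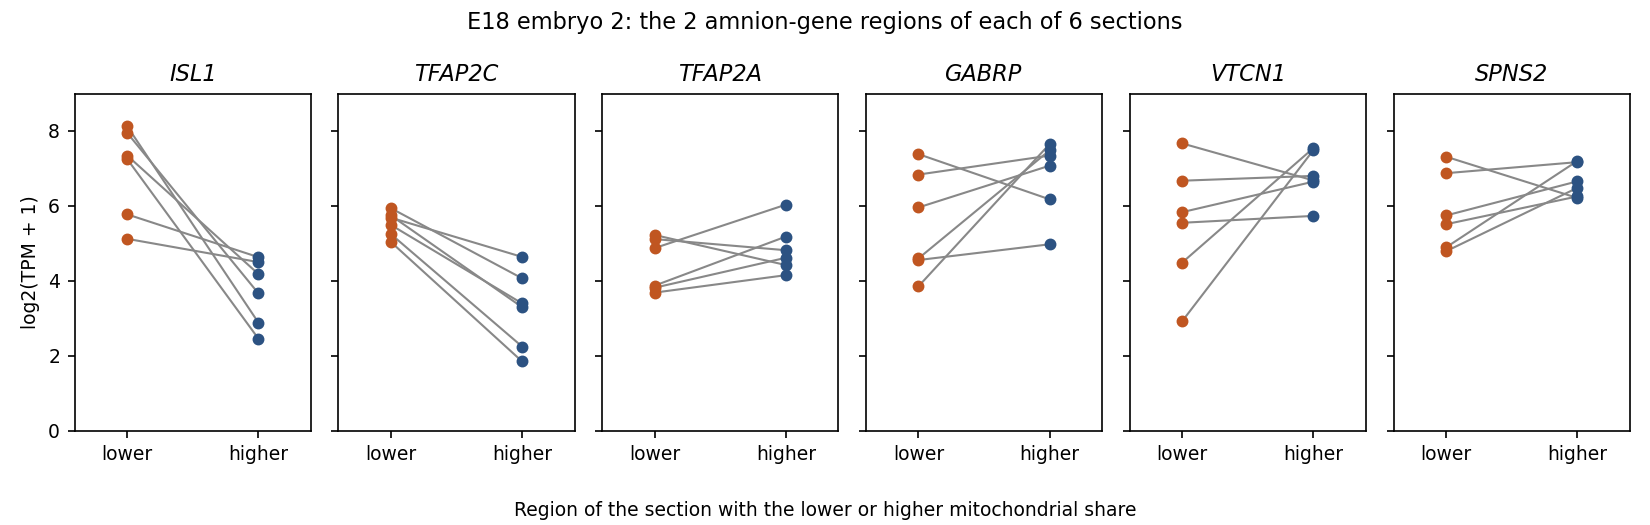
Levels as log2(TPM + 1) (vertical axis) of 6 amnion genes in the 2 high regions of each section of E18 embryo 2; lines join regions of the same section, and the horizontal axis gives the region of lower or higher mitochondrial share. ISL1 and TFAP2C fall along all 6 lines, while GABRP, VTCN1 and SPNS2 rise along 5 of 6.

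The E20 embryo had lower mean levels of the amnion genes than the E18 embryos, with 3 of the 10 past the threshold. For this comparison log2(TPM + 1) was averaged over the regions of each embryo and tested with limma, with Benjamini-Hochberg adjustment over 15216 genes at 0.05. VTCN1 averaged 3.56 and 4.76 for E18 embryos 1 and 2 and 1.31 for E20, a difference of -2.85 ± 0.58 (SE; limma adjusted p = 4e-05). GATA3 averaged 4.81, 5.52 and 3.51, a difference of -1.65 ± 0.45 (limma adjusted p = 0.00443). GATA2 averaged 2.93, 3.59 and 1.31, a difference of -1.95 ± 0.67 (limma adjusted p = 0.0355). The call of GATA2 was lost with no filter on low values, with quantile normalization, without the mitochondrially encoded genes and with the mean of section means (limma adjusted p of 0.0657, 0.117, 0.187 and 0.0755), and that of GATA3 with quantile normalization (0.0686). The other 7 differed by -1.23 to -1.80 and did not pass, ISL1 being nearest (-1.80 ± 0.66, limma adjusted p = 0.0558).

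Across all genes 8.75% were called lower and 2.64% higher at E20, and the median gene stood at -0.44, beside -1.63 for the members. None of the 10 was called higher. With 1 embryo at E20 and 1 residual degree of freedom, the spread is almost wholly borrowed from other genes, and stage cannot be told apart from the embryo and from which regions were cut. By the median over regions in place of the mean, limma called 0 members and 0 genes, with 2021 genes at an unadjusted p under 0.05.

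The E20 regions were of 2 kinds for these genes. In sections 1 to 5, with 28 regions, GABRP was listed at 0 in 27 and never reached 1 TPM, and VTCN1 and UPK2 reached 1 TPM in 1 region each. TFAP2A reached 1 TPM in 5 of the 28 regions, GATA2 in 11 and GATA3 in 26, with a median GATA3 level of 8.42 TPM. In sections 6 and 7, with 8 regions, VTCN1 was between 2.73 and 965 TPM with a median of 27.9 TPM, and GATA3 was between 0.780 and 288 TPM with a median of 33.1 TPM. VTCN1 in these 2 sections did not overlap with its values in sections 1 to 5, whose highest was 1.68 TPM. GATA3 did overlap, up to 59.8 TPM in sections 1 to 5. The share of all genes that, like VTCN1, had no overlap between these parts was not counted. VTCN1 was not alone in this: the mean log2(TPM + 1) of the yolk sac endoderm list was at least 2.26 in the 28 regions and at most 1.32 in the 8.

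When only E20 sections 6 and 7 were set against the E18 embryos, 0 members passed and 7 of the 10 differences changed sign. VTCN1 then stood at 1.30 ± 0.46 (SE) and GABRP at 1.29 ± 0.72, while GATA2 was at -1.26 ± 0.65, ISL1 at -0.48 ± 0.62 and GATA3 at -0.43 ± 0.44. In that comparison limma called 6 of all genes, with 417 at an unadjusted p under 0.05, and the median gene stood at -0.22. With sections 1 to 5 alone, 7 members were called lower, among 2970 genes called, with differences from -1.78 for INSL4 to -4.04 for VTCN1. For the 7 members that changed sign, the lower means at E20 came with sections 1 to 5, in which the yolk sac endoderm genes were high. GATA2, ISL1 and GATA3 stayed below 0 in sections 6 and 7, GATA2 at -1.26 beside -1.95 over all sections.

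**Figure D5:**
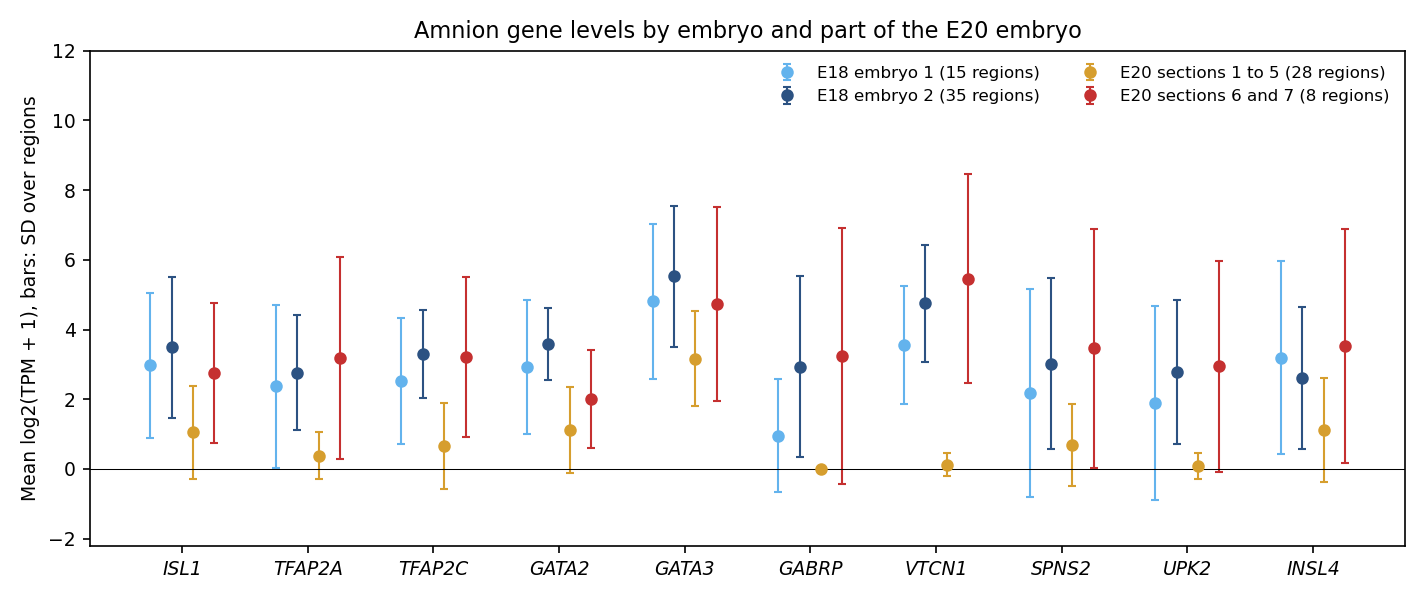
Mean log2(TPM + 1) (vertical axis) of each amnion gene (horizontal axis) over the regions of the 2 E18 embryos, of E20 sections 1 to 5 and of E20 sections 6 and 7; bars are the SD over regions. VTCN1 averages 0.121 in E20 sections 1 to 5 and 5.46 in sections 6 and 7, and the SD bars of the E18 embryos and E20 sections 6 and 7 overlap for every gene.

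Other genes tied to amnion formation were divided. Of 23 tested genes of the amnion and surface ectoderm list, HPGD (2.53 ± 0.59, limma adjusted p = 0.000533), IGFBP3 (2.23 ± 0.45, 4.2e-05) and EPAS1 (1.53 ± 0.50, 0.0248) were higher at E20, and GRHL2 (-2.44 ± 0.68, 0.00543) and MSX2 (-1.92 ± 0.67, 0.0406) were lower. Of 19 tested genes of the BMP pathway, 0 were higher and 5 were lower. These were the ligands BMP4 (-1.75) and BMP7 (-2.27), the targets ID1 (-2.65) and ID3 (-1.88), and the antagonist CHRD (-2.33). Without E18 embryo 1 the difference of BMP4 was -1.15. Beside these counts stand the 8.75% lower and 2.64% higher of all genes. With E20 sections 6 and 7 only, limma called 0 of the 23 and 0 of the 19. The medians of the 2 lists were -0.83 and -0.90. Of 12 tested trophoblast genes CGA was higher (2.58 ± 0.43, limma adjusted p = 2.13e-07) and TEAD4 lower (-1.44 ± 0.52, limma adjusted p = 0.0468), and the list's median was -0.51. CGA averaged 6.56 and 2.47 in E18 embryos 1 and 2 and 7.10 at E20, so the difference was 4.63 without E18 embryo 1 and 0.54 without E18 embryo 2. Of the 14 yolk sac endoderm genes 11 were higher and 0 lower (median 6.69), and of 15 mesenchyme genes 6 were higher and 0 lower (median 0.98). Of 11 epiblast genes 0 were higher and 9 lower (median -3.07).

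No trend of a member along the section numbers passed the test. Each embryo's sections were placed on a scale from 0 (first) to 1 (last), and a linear slope of log2(TPM + 1) was fitted with a term for the embryo. Treating regions as independent makes these p-values too small. Slopes of the 10 members were between 0.32 and 1.02, and limma called 0 of the 10, with 0 at an unadjusted p under 0.05. Across all genes 8.81% were called rising and 1.89% falling.

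The slopes differed between embryos for 2 members, beside 10.1% of all genes. VTCN1 had slopes of -0.73, -2.18 and 5.02 for E18 embryo 1, E18 embryo 2 and E20 (limma F = 20.31, adjusted p = 3.24e-05). Its E20 values were at most 1.68 TPM in sections 1 to 5 and 2.73 to 965 TPM in sections 6 and 7. The E20 slope thus describes a step between these parts more than a gradual rise. TFAP2A had slopes of -1.17, -1.16 and 2.85 (limma F = 7.12, adjusted p = 0.0214), a call lost with quantile normalization (adjusted p = 0.0657). Of the other 8, 5 had an unadjusted p under 0.05. Between the 2 E18 embryos alone limma called 0 members and 0 of all genes, with 500 genes at an unadjusted p under 0.05. Without E18 embryo 2, 0 of the members passed, with adjusted p of 0.0585 for VTCN1 and 0.159 for TFAP2A. From the wider list GRHL2, GRHL3, GRHL1, CLDN10, TFAP2B and MSX2 were called in the same test, 6 of 23 genes, and GRHL2 had slopes of -0.31, -1.03 and 3.41. In the E20 embryo GRHL2 and VTCN1 were thus alike in direction. Since numbering need not start at the same end in each embryo, a slope of opposite sign does not show an opposite position.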

How the data were processed

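The authors deposited 1 table of TPM values, with 17023 genes and 86 columns; per the submitters' processing notes fastp, HISAT2 and StringTie were used, and the genome build is not given in the sources used here. No coordinates or sequences are printed. Each column was matched to 1 region by its label, and 0 columns had no sample. TPM was used as deposited on the log2(TPM + 1) scale, which understates changes of low genes. Genes at 1 TPM or more in at least 10 regions were tested (15216) with limma 3.58.1 in R 4.3.3, eBayes with a trend, 2-sided, Benjamini-Hochberg at 0.05. The stage test used embryo means. The section tests used regions, with embryo as a block. The labels do not say how the embryos were related, so p-values measure only the spread between these samples. Named genes are the 10 members, the 12 genes most like their score, the 2 most like each member, and up to 4 called genes of a list, largest effect first; EPAS1, BMP4, TFAP2B and MSX2 go beyond 4 so that each called gene is named, and genes named beside a single region or a region pair (such as SOX2, CGA, COL3A1 and TTR) were chosen after their values were seen. The members and lists were chosen with earlier results of these data known. KRT8, KRT18, GREM1, CYP11A1 and UTF1 are not analysed here. Alternatives were the pseudocount (0.1), filters, quantile normalization, removal of mitochondrially encoded genes, parts of the E20 embryo, other summaries and leaving out an embryo.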

Additional observations from a re-analysis of the deposited data

Results flagged for a closer look

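The slopes of VTCN1 along the section numbers differed between the 3 embryos by a test of the difference itself (limma moderated F test, adjusted p = 3.24e-05): the slope was -0.73 and -2.18 for E18 embryos 1 and 2 and 5.02 for E20, in log2 units from the first to the last section. The slopes of TFAP2A also differed by that test (adjusted p = 0.0214), at -1.17, -1.16 and 2.85. Both tests treat regions as independent, and neither passed without the E20 embryo or without E18 embryo 2. At E20 VTCN1 was at most 1.68 TPM in sections 1 to 5 and at least 2.73 TPM in sections 6 and 7, a step more than a gradual rise.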

How the results depend on the processing

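TPM keeps no depth, the E20 stage is 1 embryo, and section tests count regions as independent. The stage test called 1734 genes and 3 members; it called 857 genes without the mitochondrially encoded genes, 0 genes and 0 members by the median over regions, 6 and 0 with E20 sections 6 and 7 only, 2970 and 7 with sections 1 to 5 only, 5 members with a pseudocount of 0.1, 1 with quantile normalization, 4 with a stricter filter, and 2 each with no filter, without the mitochondrially encoded genes and by section means. With E20 sections 6 and 7 only, the differences that changed sign were TFAP2A 0.62, TFAP2C 0.30, GABRP 1.29, VTCN1 1.30, SPNS2 0.85, UPK2 0.60 and INSL4 0.62. Leaving out an E18 embryo kept the direction of all 10 but left no test, and leaving out E20 was not possible. Quantile normalization moved the median gene from -0.44 to -0.0088 and the share of stage calls that were higher at E20 from 23.2% to 54% (rising section calls from 82.4% to 63%); without the mitochondrially encoded genes the median was -0.56. The section trend called 1628 genes, 9 to 2411 when an embryo was left out, 27 on section means, 502 with genes detected as a covariate and 6 with the E20 parts as separate blocks; it called 0 members, or 0 to 1 with an embryo left out. When an embryo was left out, slopes ranged from -0.81 to 1.05 for ISL1, -1.17 to 1.61 for TFAP2A, -0.60 to 1.35 for TFAP2C, -0.11 to 0.73 for GATA3, -1.17 to 1.82 for GABRP, -1.73 to 3.24 for VTCN1, -0.83 to 1.86 for SPNS2, -1.13 to 1.45 for UPK2 and -0.63 to 1.84 for INSL4; the lowest was in each case without E20. With the E20 parts as separate blocks they were -0.46, -0.84, -0.49, -0.25, -0.94, -1.43, -0.53, -0.96 and -0.32 in that order, and ISL1 was -0.0027 with quantile normalization. The slope difference called 1537 genes and 2 members, 0 to 1881 genes and 0 to 5 members with an embryo left out, and 4, 4 and 1 members with a pseudocount of 0.1, a stricter filter and quantile normalization. The 20 regions became 22 at 5 TPM and 13 at 20 TPM. The cause of these shifts was not tested. No paired analysis was possible because, in the 3 tests between embryos, section and sector numbers are positions in separate embryos and pair no regions across them; regions of the same section of E18 embryo 2 were set side by side as values, with no test.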
